A study of Saccharomyces cerevisiae with 15 samples.

Results

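The genes described here make amino acids other than methionine and cysteine in the budding yeast Saccharomyces cerevisiae, together with GCN4, the transcriptional activator that many of them share. They were chosen by name from the array's platform annotation: GCN4, 4 genes of arginine synthesis, 6 of histidine, 10 of the branched-chain amino acids, 7 of lysine, 9 of the aromatic amino acids and 5 of threonine. All 42 were found among 5539 named genes, each as 2 spots. Wild-type cells were exposed to 1.0 mM As(III), or arsenite, in which arsenic is trivalent and toxic, for 15 min (3 arrays), 30 min (3), 1 h (6) or 18 h (3). On each of the 15 arrays their total RNA was hybridised beside RNA of untreated wild-type cells. The labels name no strain background, mutation or other agent, and do not say that replicates were separate cultures, so a p-value measures the spread between these arrays, which may be technical. When the untreated cells were harvested, relative to the treated ones, is not given either.

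Each amino acid pathway is a chain of enzymes, and several begin with a step that the end product inhibits. Gcn4 is a leucine zipper activator of the general amino acid control of yeast, in which starvation for any of several amino acids raises transcription of genes in many pathways at once. Its own synthesis is controlled largely at translation, through short reading frames ahead of the coding region, so the GCN4 transcript measured here does not give the amount of protein. Arrays of this kind measure transcript ratios, not enzyme activity or amino acid levels.

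Levels are given as log2 of the treated over the untreated signal, less the array's median gene, so that -1 is 2-fold lower than untreated. Direction was likely treated over untreated on all arrays, from the dyes, the order of conditions in the titles and zeros written with a minus sign on the 3 arrays whose treated RNA carried Cy3. Time-point values are those of a limma fit with their standard error. For 15 min, 30 min and 18 h, where treated RNA was always in Cy5, the fit subtracts a dye effect estimated at 1 h, and 8 of 126 such member values lay outside the range of their own 3 arrays. This dye effect cannot be told apart from the form of the deposited values. At 1 h the Cy3 arrays, and none of the Cy5 arrays, held values that were not log2 of whole-number ratios. The threshold for a call was 0.05, Benjamini-Hochberg adjusted over all genes. Centring matters to the direction of small changes: as deposited, the median over all genes of the fitted values ran from -0.53 (1 h) through 0.25 (30 min) and 0.85 (15 min) to 1.02 (18 h). Total RNA per cell cannot be seen in these ratios.

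The amino acid genes gave bright spots: 37 of the 42 were in the top quartile of brightness, with LYS2, HIS6, ARG8, LYS4 and TRP3 below it. On several arrays bright spots as a class read lower than dim ones. The brightest minus the dimmest eighth of all genes stood at -1.90 on 15 min replicate 2, -2.01 and -1.93 on 30 min replicates 2 and 3, -1.77 on 1 h replicate 4 and -1.62 on 18 h replicate 1, and at 0.02 on 30 min replicate 1 and 0.68 on 18 h replicate 3. The median of the 42 genes was lowest, at -1.65, on 30 min replicate 3 and highest, at 0.57, on 18 h replicate 3. Values with this trend removed from each array are therefore given beside the main ones for most counts, the pathway medians and some genes. Genes given without them moved as well, to unlike degrees. At 1 h HOM2 read -2.29 to -0.74, and -0.94 to -0.52 with the trend removed. ARG8 read -2.16 to -0.76, and -2.05 to -0.65 with the trend removed. What part of the trend is technical was not tested. Duplicate spots correlated with r = 0.65 on 15 min replicate 1 and 0.84 to 0.99 on the other 14 arrays.

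**Figure D1:**
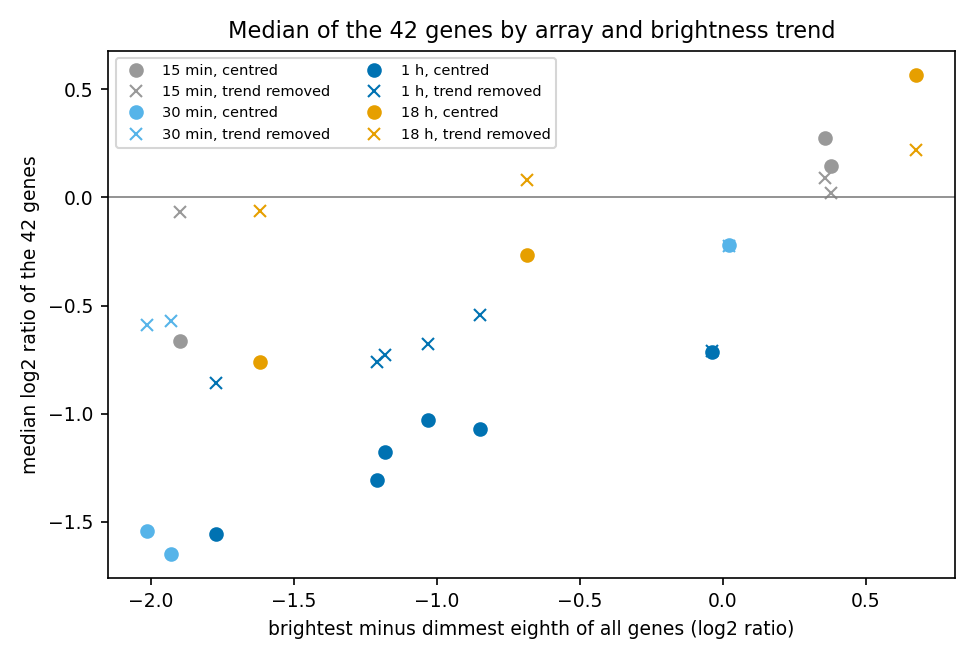
Median log2 ratio of the 42 amino acid genes on each array (y axis) against the brightest minus the dimmest eighth of all genes on that array (x axis), for centred values (circles) and with the brightness trend removed (crosses). Over all arrays circles range from -1.65 to 0.57 and crosses from -0.86 to 0.22; at 1 h circles range from -1.56 to -0.71 and crosses from -0.86 to -0.54.

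After 1 h most of the amino acid genes had fallen, in every pathway, and GCN4 with them. Of the 42 genes, 29 fell and 2 rose, against 22.6% of all genes lower and 17.1% higher. GCN4 fell 8.10-fold and ILV5 of the branched-chain pathway 14.4-fold, and 24 genes fell by more than 2-fold. The smallest of these falls, that of LEU4 at -1.01, ranked 671 from the lowest of all 5539 genes. How many members passed 2-fold with the brightness trend removed was not counted. LYS1, the last step of lysine synthesis, and HOM6, which makes homoserine, were the genes that rose. The median of the 42 was -1.13, where that of all genes was 0.02. Among the 1348 other genes in the top brightness quartile, 43.5% fell and 21.6% rose, with a median of -0.35. The members were brighter than that quartile as a whole, with 23 of the 42 in the brightest eighth of all genes. On the 1 h arrays the median of that eighth, members included, ran from -1.11 to -0.10. That of the 42 ran from -1.56 to -0.71. With the brightness trend removed, 27 of the 42 fell (22% of all genes), all 27 among the 29, and 5 rose (21.8% of all genes).

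**Figure D2:**
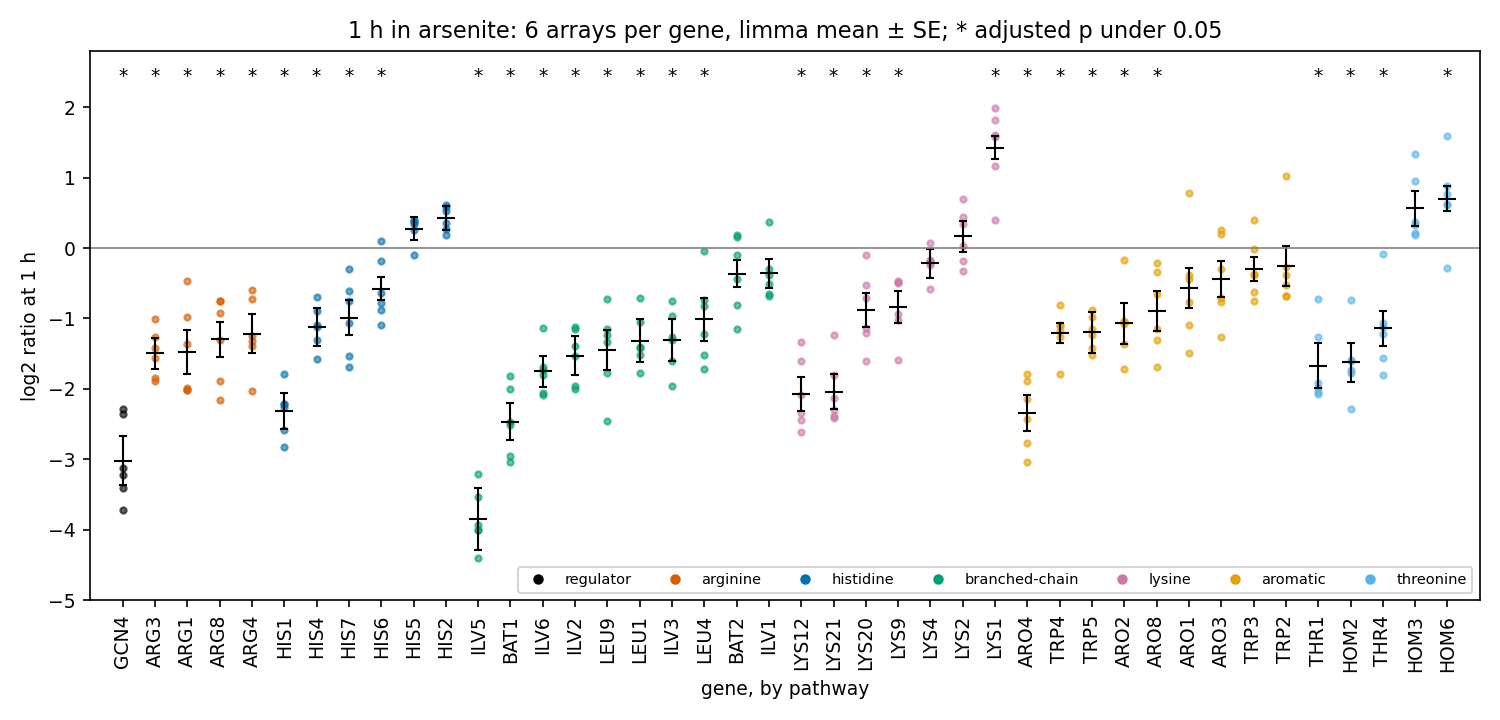
Log2 ratios of each of the 42 genes after 1 h in arsenite (y axis), grouped by pathway (x axis, colours), with 6 arrays as points and the limma mean with its standard error as a black mark. Asterisks stand over the 31 genes past an adjusted p of 0.05; ILV5 lies lowest at -3.85 and LYS1 highest at 1.42.

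GCN4 (YEL009C, chromosome V; systematic names are RefSeq's) read between -3.71 and -2.28 on the 6 arrays at 1 h, with a median of -3.17. All 6 arrays lay far below 0, and the fitted value was -3.02 ± 0.35 (limma adjusted p = 5.6e-06), or -2.16 with the brightness trend removed. At 15 min GCN4 read 0.05, -1.69 and -0.45 on replicates 1 to 3, and at 30 min -0.30, -3.27 and -3.11. Replicate 1 at 30 min thus stood apart from replicates 2 and 3, which had reached the level of 1 h. Deposited values of replicate 1, unlike those of replicates 2 and 3, were not log2 of whole-number ratios. Whether that bears on the gap was not tested. The 30 min value of -2.31 ± 0.61 was called (limma adjusted p = 0.033), and that call was lost without 30 min replicate 2 or 3 and without 1 h replicate 2, 3 or 6. At 1 h GCN4 ranked 135 from the lowest of all 5539 genes. By 18 h its arrays lay on both sides of 0, at -0.34, -0.11 and 1.196. None of these 3 arrays overlapped the 6 of 1 h, and the difference between 18 h and 1 h was 3.18 ± 0.70 (limma adjusted p = 0.032), or 2.82 with the trend removed.

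**Figure D3:**
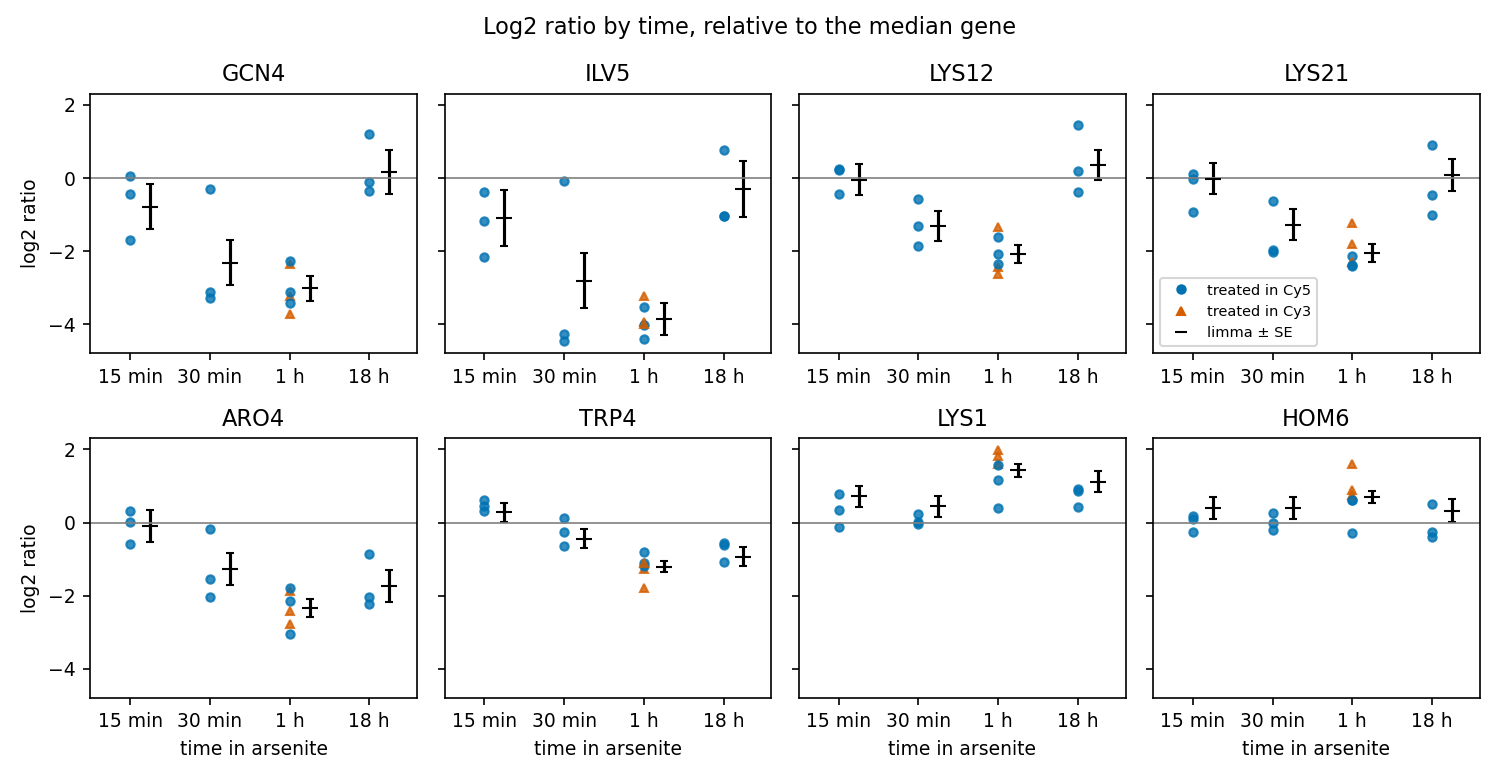
Log2 ratios of 8 genes (y axis) by time in arsenite (x axis), with circles for treated RNA in Cy5, triangles for Cy3 and a black mark for the limma value with its standard error. GCN4, ILV5, LYS12 and LYS21 have their lowest limma value at 1 h and near 0 at 18 h, ARO4 and TRP4 are still low at 18 h, and LYS1 is above 0 at 1 h and 18 h.

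Branched-chain synthesis held the lowest value of the enzymes, that of ILV5 (YLR355C, chromosome XII). Lower calls at 1 h numbered 8 of its 10 genes, with none higher, and its median was -1.38. Ilv2 and its regulatory subunit Ilv6 form acetolactate synthase, Ilv5 is the reductoisomerase that follows, and Ilv3 the dehydratase after it, all shared by valine, isoleucine and leucine. ILV5 read -4.40 to -3.21 at 1 h, with a median of -3.97. Its fitted fall of -3.85 ± 0.44 (limma adjusted p = 4.7e-06) became -2.95 with the trend removed. On the earlier arrays it read -0.39, -2.15 and -1.17 at 15 min and -0.07, -4.27 and -4.47 at 30 min, so that 30 min replicate 1 stood near 0, far from replicates 2 and 3. The 30 min value was -2.80 ± 0.76 (limma adjusted p = 0.038). At 18 h the values were -1.03, -1.05 and 0.76, all above those of 1 h. ILV2 (-1.53), ILV3 (-1.31) and ILV6 (-1.75) fell as well at 1 h, each below 0 on all 6 arrays. ILV1, the threonine deaminase that feeds isoleucine, had the value nearest 0 of the 10 with BAT2, with a lowest array of -0.68, a median of -0.44 and a highest of 0.37, and its fitted -0.36 was not called (95% interval -0.80 to 0.09).

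The branch to leucine fell with the common steps. LEU4 and LEU9 encode isozymes of isopropylmalate synthase and LEU1 the isomerase that follows. At 1 h LEU1 stood at -1.31 ± 0.31, LEU9 at -1.45 ± 0.28 and LEU4 at -1.01 ± 0.30, all called. LEU1 lost its call (limma adjusted p = 0.053) when only arrays whose treated RNA carried Cy5 were fitted. LEU4 lost its call on those arrays too, and without 1 h replicate 3 or 4. It stood at -0.35 with the brightness trend removed (limma adjusted p = 0.20). Its arrays ran from -1.72 to -0.04, with a median of -1.02, and those of LEU9 from -2.46 to -0.73, with a median of -1.29.

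The lysine genes moved in both directions. Lys20 and Lys21 are homocitrate synthases at the entry, Lys12 is a dehydrogenase further on, and Lys9 and Lys1 form and cleave saccharopine at the end. Of the 7 genes, 4 fell at 1 h and 1 rose. LYS12 read -2.62 to -1.34 (median -2.21) at 1 h, with a fitted -2.07 ± 0.24 (limma adjusted p = 5.5e-06). LYS21 (-2.04 ± 0.25), LYS20 (-0.88 ± 0.25) and LYS9 (-0.83 ± 0.23) fell too. LYS21 read -2.41 to -1.23 (median -2.22) and LYS20 -1.61 to -0.10 (median -0.92). LYS20 stood at -0.30 (limma adjusted p = 0.12) with the brightness trend removed. LYS9 lost its call on the Cy5 arrays alone (limma adjusted p = 0.34).

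LYS1 (YIR034C, chromosome IX) moved the other way. It read 0.40 on 1 h replicate 2 and 1.16 to 1.99 on the other 5 arrays, all above 0. The fitted rise was 1.42 ± 0.17, or 2.68-fold (limma adjusted p = 5.9e-06), and 1.71 with the trend removed. Without centring it was 0.87 (limma adjusted p = 0.10). At 15 min LYS1 read 0.34, -0.12 and 0.79, and at 30 min 0.24, -0.05 and 0.03, near the untreated level on most arrays. At 18 h it read 0.91, 0.42 and 0.87, and its fitted 1.11 ± 0.29 (limma adjusted p = 0.028) lay above all 3 and was 0.73 (limma adjusted p = 0.070) without the dye term. The 18 h call was also lost without 18 h replicate 1 or 3 and without 1 h replicate 2 or 6. LYS4, the homoaconitase, stood at -0.22 at 1 h and LYS2, the aminoadipate reductase, at 0.17, neither called. LYS2 gave the dimmest spots of the 42 genes.

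The threonine genes also moved in both directions, around homoserine, the intermediate from which threonine and methionine branch. Hom3 is the aspartate kinase, Hom2 the semialdehyde dehydrogenase and Hom6 the homoserine dehydrogenase, while Thr1 and Thr4 finish threonine. At 1 h THR1 (-1.67 ± 0.32), HOM2 (-1.62 ± 0.28) and THR4 (-1.14 ± 0.25) fell, and HOM6 (YJR139C, chromosome X) rose by 0.70 ± 0.18 (limma adjusted p = 0.0046). THR1 read -2.07 to -0.72 with a median of -1.96. HOM6 read -0.29 on replicate 5 and 0.62 to 1.59 on the other 5 arrays. Its value was 1.32 with the brightness trend removed and 0.15 (limma adjusted p = 0.82) without centring, and its call was lost on the Cy5 arrays alone. HOM3 was above 0 on all 6 arrays, from 0.19 to 1.33, but its 0.56 ± 0.25 was not called (limma adjusted p = 0.086). With the trend removed HOM3 was called, at 1.45.

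**Figure D4:**
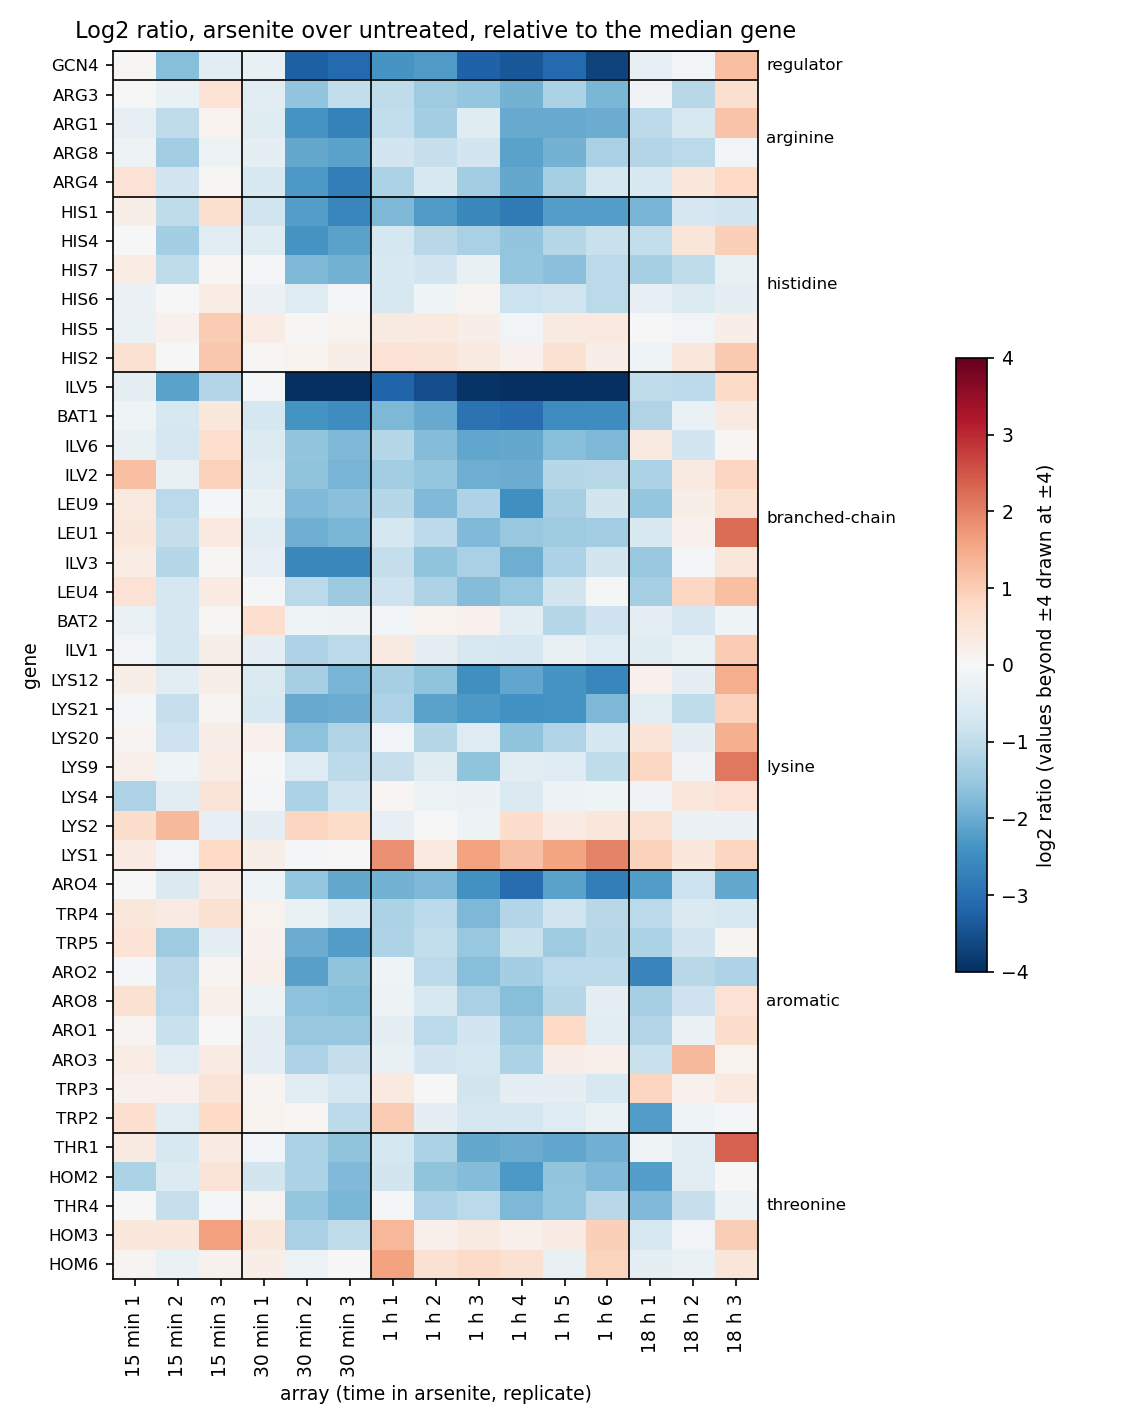
Heat map of the log2 ratios of the 42 genes (rows, grouped by pathway and ordered by their value at 1 h) on the 15 arrays (columns, by time and replicate), blue below and red above 0. The 1 h columns are mostly blue, with LYS1, HOM6, HOM3, HIS2, HIS5 and, on 4 of 6 arrays, LYS2 as the main exceptions. The column of 30 min replicate 1 is paler than those of replicates 2 and 3, and that of 18 h replicate 3 is mostly red.

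All 4 arginine genes fell at 1 h, within a narrow range. Arg8 works on the ornithine branch, Arg3 joins ornithine to carbamoyl phosphate, and Arg1 and Arg4 complete arginine. The largest fall was that of ARG3 (-1.495 ± 0.22, limma adjusted p = 4.8e-05), with arrays from -1.88 to -1.005 and a median of -1.49. The smallest was that of ARG4 (-1.22 ± 0.28), with arrays from -2.04 to -0.59 and a median of -1.29. The gap between these is smaller than the sum of their standard errors. ARG1 stood at -1.47 and ARG8 at -1.30. Unlike the other 3, ARG4 was already called at 30 min (-1.79 ± 0.48, limma adjusted p = 0.035), from arrays of -0.61, -2.31 and -2.76; the difference between these genes was not tested.

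Histidine synthesis fell in 4 of its 6 genes at 1 h, the first step most. HIS1, which encodes the ATP phosphoribosyltransferase at the entry, read -2.83 to -1.79 with a median of -2.24. Its fitted fall was -2.32 ± 0.25 (limma adjusted p = 2.9e-06), and -1.69 with the trend removed. The multifunctional HIS4 (-1.12) fell as well, as did HIS7 (-0.99) and HIS6 (-0.58) of intermediate steps, HIS6 without a call when 1 h replicate 6 was left out. HIS2, the phosphatase, and HIS5, the aminotransferase, both near the end, stood at 0.42 and 0.28, neither called. HIS2 was above 0 on all 6 arrays, from 0.18 to 0.62 with a median of 0.44. With the brightness trend removed HIS2 (0.72) and HIS5 (0.57) were called higher, and without centring they stood at -0.13 and -0.27.

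Among the 9 aromatic genes 5 fell at 1 h and 0 rose, also at an unadjusted p under 0.05. ARO3 and ARO4 encode isozymes at the entry of the shikimate route, inhibited by phenylalanine and tyrosine in that order, Aro1 and Aro2 lead to chorismate, and TRP2, TRP4, TRP3 and TRP5 act on the way from there to tryptophan. ARO4 read -3.04 to -1.78 with a median of -2.29, with a fitted value of -2.34 ± 0.25 (limma adjusted p = 2.4e-06), or -1.58 with the trend removed. TRP4 (-1.21 ± 0.15), TRP5 (-1.20), ARO2 (-1.07) and the aminotransferase gene ARO8 (-0.89) fell as well. ARO2, ARO8 and TRP5 lost their calls on the Cy5 arrays alone, and ARO8 without 1 h replicate 3 or 4. TRP2, the entry of the tryptophan branch, was at -0.25 ± 0.29, with a lowest array of -0.69, a median of -0.45 and 1.02 on replicate 1. Its duplicate spots differed by up to 3.21 on an array, the largest such gap of the 42 genes. ARO1, ARO3 and TRP3 were at -0.56, -0.43 and -0.29, not called.

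Set side by side, the pathway medians at 1 h ran from -1.39 for arginine and -1.38 for the branched-chain genes through -1.14 for threonine, -0.89 for the aromatic genes and -0.83 for lysine to -0.78 for histidine. Neighbours in this order overlapped from array to array. On single arrays the median ran from -2.02 to -0.99 for arginine, -1.98 to -0.97 for the branched-chain genes, -1.80 to -0.09 for threonine, -1.31 to -0.30 for the aromatic genes, -0.71 to -0.32 for lysine and -1.20 to -0.10 for histidine. The lysine medians did not overlap with those of arginine and the branched-chain genes. With the brightness trend removed the medians ran from -1.01 for arginine and -0.92 for the branched-chain genes through -0.73 for threonine, -0.66 for histidine and -0.46 for the aromatic genes to -0.31 for lysine. No test was made between pathways.

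In 3 of 4 pairs, isozymes of the same step differed at 1 h. Differences were taken within each array, where centring cancels but a brightness trend does not. They were tested over the 6 arrays at 1 h by an exact sign-flip permutation test (two-sided, 4 pairs, Benjamini-Hochberg). Bat1 is the mitochondrial and Bat2 the cytosolic branched-chain aminotransferase, and BAT1 minus BAT2 was -2.10 ± 0.67 (SD, n = 6) on all 6 arrays (exact adjusted p = 0.042). BAT1 itself stood at -2.46 ± 0.26, from arrays of -3.04 to -1.81. BAT2 was at -0.36 with arrays of -1.14 to 0.18 (95% interval of the fitted value -0.77 to 0.05), and was not called. At 15 min the differences were 0.09, 0.03 and 0.36, at 30 min -1.35, -2.21 and -2.27, and at 18 h -0.84, 0.42 and 0.51. The gap between the aminotransferases was thus open by 30 min on all 3 arrays, replicate 1 included. With 3 arrays an exact test cannot go below p = 0.25.

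ARO4 fell below ARO3, with a difference of 1.91 ± 0.68 (SD, n = 6; exact adjusted p = 0.042) on all 6 arrays, from 1.01 to 2.97. The difference was at most 0.27 at 15 min, of mixed sign at 30 min (-0.22, 0.29 and 1.08) and 1.34, 2.15 and 2.18 at 18 h. At 1 h ARO3 itself read -1.27 to 0.25, with a median of -0.51. Among the homocitrate synthases LYS21 fell below LYS20 by 1.16 ± 0.33 (SD, n = 6; exact adjusted p = 0.042), also on all 6 arrays. For LEU4 and LEU9 the difference was 0.43 ± 0.49 (SD, n = 6; exact adjusted p = 0.094), with LEU9 lower on 5 of 6 arrays. The other 3 pairs have the smallest p this exact test can give, 0.031 before adjustment. In these 3 pairs the gene that fell more was also the brighter, while LEU9 was dimmer than LEU4. With the brightness trend removed, the differences of these 3 pairs were smaller on all 6 arrays but kept their sign. BAT1 then read -2.12 to -1.23 and BAT2 -0.88 to 0.46 at 1 h. LYS21 read -1.51 to -0.95, LYS20 -0.61 to 0.14, ARO4 -2.06 to -0.98 and ARO3 -0.42 to 0.75. Spotted probes can bind related copies, and whether these did was not tested.

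**Figure D5:**
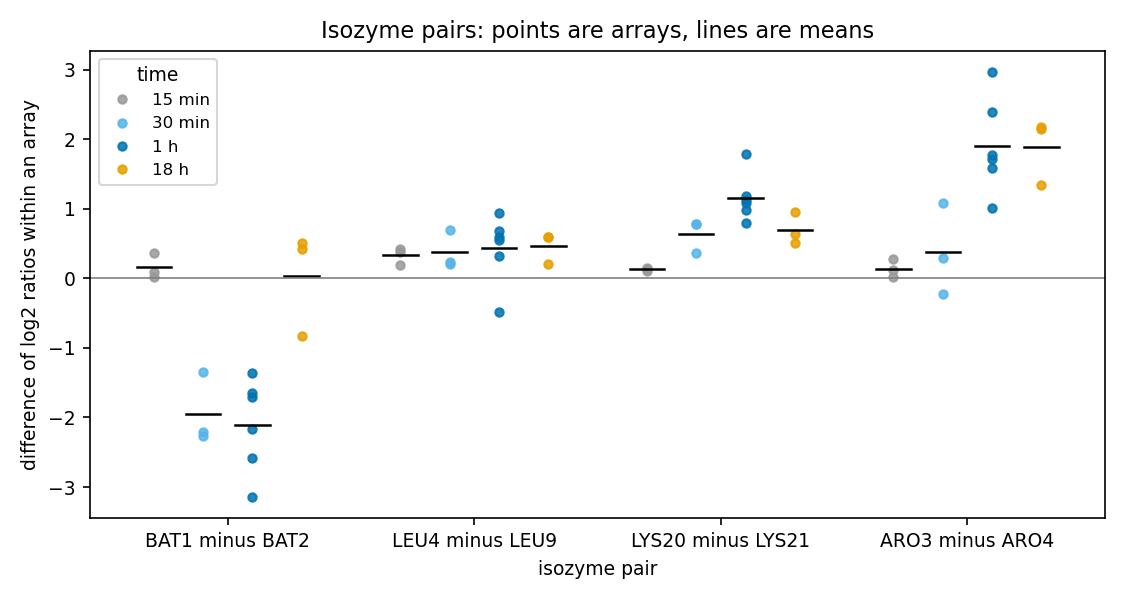
Difference between the log2 ratios of 2 isozyme genes on the same array (y axis) for 4 pairs (x axis), with points for arrays coloured by time and a line for the mean of each time. BAT1 lies below BAT2 on all arrays at 30 min and 1 h. ARO3 lies above ARO4 on all arrays at 15 min, 1 h and 18 h, and LYS20 lies above LYS21 on all arrays at every time.

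At 15 min no member was called in either direction by limma (0.668% of all genes higher, 0.0181% lower), with 2 higher and 0 lower at an unadjusted p under 0.05 (410 and 129 over all genes) and a median of 0.05. ILV5 (-1.10) and GCN4 (-0.78) were lowest and HOM3 (1.15) and LYS1 (0.72) highest in fitted value. HOM3 read 0.43, 0.41 and 1.63, all above 0, and was the single call with the brightness trend removed (1.18; 1.03% of all genes higher and 0.144% lower). The medians of the 42 genes on replicates 1 to 3 were 0.15, -0.66 and 0.27, replicate 2 being the array with the strong brightness trend; with the trend removed they were 0.02, -0.07 and 0.09.

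At 30 min, 5 members fell and none rose by limma (4.48% of all genes lower, 3.27% higher): GCN4, ARG4, HIS1, ILV5 and BAT1. At an unadjusted p under 0.05 the counts were 22 and 0, and 723 and 546 over all 5539 genes. The median of the 42 was -0.92, against -0.32 for the other genes of the top brightness quartile. Of the 42, 27 (64.3%) were below 0 on all 3 arrays, against 27.2% of all genes. Medians of the brightest eighth of all genes, members included, were 0.04, -1.16 and -1.04 on replicates 1 to 3. Replicate 1 differed from the others, with a median over members of -0.22 against -1.54 and -1.65. It was also the only 30 min array whose deposited values were not log2 of whole-number ratios, and the part of this was not tested. HIS1 read -0.81, -2.21 and -2.61, and BAT1 -0.69, -2.39 and -2.48, so both were below 0 on replicate 1 too. Without replicate 2 or replicate 3 no member was called (0 lower, with 5 lower among all genes in either case), and without replicate 1 there were 19, with 566 lower among all 5539 genes. After removal of the brightness trend 8 fell (6.05% of all genes), the 5 above with HIS4, ILV3 and LYS12, and HOM6 rose (7.22% of all genes higher). Without the dye term 23 members fell, where lower calls over all genes went from 248 to 702.

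Changes between neighbouring early times did not pass the test. Between 15 and 30 min, limma called 0 members (0% of all genes in either direction), with 15 lower at an unadjusted p under 0.05 (297 over all genes) and a median difference of -0.94. Between 30 min and 1 h it called 0 as well (0% of all genes in either direction), with 1 higher and 2 lower at an unadjusted p under 0.05 (126 and 160 over all genes) and a median difference of -0.11.

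By 18 h the amino acid genes as a group stood at the median gene again. Their median was 0.05, with 1 member higher and 2 lower (5.33% of all genes higher, 3.16% lower). On all 3 arrays 10 members (23.8%) were below 0, as were 24.6% of all genes: ARG8, HIS1, HIS6, HIS7, BAT2, THR4 and the aromatic genes ARO2, ARO4, TRP2 and TRP4. Those called lower were ARO4 and TRP4. ARO4 read -2.22, -0.85 and -2.03, below 0 on all 3 arrays, and stood at -1.72 ± 0.44 (limma adjusted p = 0.024). TRP4, the phosphoribosyltransferase of tryptophan synthesis, read -1.07, -0.57 and -0.63 and stood at -0.93 ± 0.26 (limma adjusted p = 0.035), a value that was 0.06 without centring. ARO2 read -2.65, -1.11 and -1.22 and was not called (-1.56, limma adjusted p = 0.070), but was with the trend removed. With that setting 3 members were lower (6.19% of all genes) and 4 higher (9.64%), LYS1 with LYS20, HOM3 and THR1. Replicate 3 was the highest of the 18 h arrays for 32 members, with a median of 0.57 against -0.76 and -0.26. It was also the array on which bright genes read high. Without 18 h replicate 1, 18 h replicate 3 or 1 h replicate 2, limma called 0 members lower (37, 80 and 79 of all genes, against 175). Without 18 h replicate 2 or 1 h replicate 3, 5 or 6 it called 1 (59, 85, 160 and 64 of all genes).

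From 1 h to 18 h, GCN4, LYS12 and LYS21 came up again (3 members higher, 1.05% of all genes, and none lower, 0.361%). LYS12 read 0.19, -0.38 and 1.46 at 18 h, all above its 1 h arrays, and differed by 2.43 ± 0.48 (limma adjusted p = 0.022). LYS21 read -0.46, -1.01 and 0.91, again with no overlap with 1 h, and differed by 2.12 ± 0.50 (limma adjusted p = 0.046). ILV5 had the largest difference, 3.54 ± 0.88, with a larger error, and was not called (limma adjusted p = 0.061), nor were BAT1 (2.15, limma adjusted p = 0.055) and ILV6 (1.72, limma adjusted p = 0.066). At an unadjusted p under 0.05, 18 members were higher at 18 h, all among the 29 that had fallen at 1 h, and 543 of all 5539 genes were. With the brightness trend removed, 9 were higher (2.73% of all genes) and none lower (2.04%), ILV5, BAT1, ILV6, LEU1, LYS20 and THR1 in addition. Counts with an array left out follow, with those over all genes in brackets (58 in the main fit). Without 18 h replicate 3 there were 0 (8), as there were without 1 h replicate 4 (11) or 5 (14), and without 1 h replicate 3 there was 1 (50). Without 15 min replicate 2 there were 5 (70), and without 30 min replicate 1 (139) or 18 h replicate 2 (78) there were 8.

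Other genes of these pathways, their regulators and genes for other amino acids were read at 1 h too. The lists were chosen with earlier results of these data known. Of 11 measured remaining enzymes 2 fell and 1 rose (18.2% and 9.09%, near the 22.6% and 17.1% of all genes), with a median of -0.12. LEU2, the isopropylmalate dehydrogenase (-1.34 ± 0.25), and LYS5, which activates Lys2 (-1.26 ± 0.35), fell, and ARO9, a catabolic aromatic aminotransferase, rose by 1.32 ± 0.19. The list's spots were dimmer than those of the members: ARG2, ARG7, PHA2 and TRP1 lay in the dimmest quartile. Of 12 regulators 3 fell and 2 rose (25% and 16.7%, again near all genes), with a median of -0.25. The inositol polyphosphate kinase gene ARG82 (1.07 ± 0.15) and ARO80, the activator of ARO9 (0.80 ± 0.16), rose. BAS1, an activator of histidine and purine genes (-0.97 ± 0.16), and GCN20, which acts in the activation of the kinase Gcn2 (-0.80 ± 0.20), fell. GCN2 itself (-0.36) and PCL5, a cyclin in Gcn4 turnover (-0.25), were not called. Of 15 genes for other amino acids 10 fell and 1 rose (66.7% and 6.67%), with a median of -0.77. Medians of this list on single arrays ran from -1.07 to -0.34, and from -0.74 to -0.16 with the brightness trend removed. The asparagine synthetase gene ASN1 (-1.76 ± 0.32), the threonine aldolase gene GLY1 (-1.42 ± 0.30) and PRO3, the last step to proline (-1.27 ± 0.30), led the falls. With the trend removed their 1 h arrays ran from -1.18 to -0.69, -0.81 to -0.26 and -1.55 to -0.16 in that order. SER33, an isozyme at the entry of serine synthesis, rose by 0.997 ± 0.24.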

How the data were processed

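The authors deposited 1 log2 ratio per spot for 13056 spots on 15 two-colour arrays; how it was made is not given in the sources used here. Precision is limited by how many arrays there are. The deposited values of 10 arrays were log2 of a ratio of whole numbers up to 65535 (relative tolerance 5e-14). The other 5 were 1 h replicates 1, 3 and 6, 15 min replicate 1 and 30 min replicate 1. Their log base was taken from the 10. Spots were named from the platform annotation (1918 unnamed, left out) and averaged per gene, and arrays were centred on the median gene. Brightness was the mean log2 product of the recovered whole numbers; common factors are lost, so it is approximate. Trends were removed by loess (span 0.3). limma 3.58.1 in R 4.3.3 fitted a mean per time and a dye effect (10 residual and 5.409 prior degrees of freedom; 0 genes with a called dye effect; two-sided). The code was tested on simulated data. Members, pathways, lists and tests were chosen with earlier results of these data known. All 42 members are accounted for; array values are given for GCN4, for the highest and lowest member of each pathway at 1 h, isozymes and members that rose, and up to 4 called genes are named per other list. Some members and array values beyond this rule were chosen after their values were seen. No sequences were used.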

Additional observations from a re-analysis of the deposited data

Results flagged for a closer look

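GCN4, LYS12 and LYS21 were listed because their ratios differed between time points by limma's test of 18 h against 1 h, with differences of 3.18, 2.43 and 2.12. Among the 6 arrays at 1 h, 3 members had 1 array far from the others by Dixon's criterion, which chance meets in about 1 of 20 groups. TRP2 read 1.02 on replicate 1 and -0.69 to -0.26 on the others. ILV1 read 0.37 on replicate 1 and -0.68 to -0.30 on the others. HIS5 read -0.094 on replicate 4 and 0.25 to 0.40 on the others. None of these 3 genes was called at 1 h. Replicate 1 carried almost no brightness trend (-0.04) and replicate 4 the strongest of the 1 h arrays (-1.77); their part in these values was not tested.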

How the results depend on the processing

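The counts below are of members called by limma, for 28 alternative fits. A bare number or range in brackets after a count is that over all genes, which moved with the settings too. In the main fit it was 37 higher at 15 min, 181 higher and 248 lower at 30 min, and 946 higher at 1 h. It was 295 higher and 175 lower at 18 h, and 58 higher at 18 h than at 1 h. At 1 h, 21 of the 31 calls were kept in all 28, a share that was not counted over all genes. Lower counts stayed between 27 and 30 (1017 to 1303) with an array left out, where the main fit had 1251 over all genes. Without a dye term 23 members were lower at 30 min (702), 0 higher (440) and 4 lower (463) at 18 h, and 10 higher (164) at 18 h than at 1 h. With the Cy5 arrays alone 14 were lower at 30 min, 1 higher at 1 h, 0 higher at 18 h and 1 higher at 18 h than at 1 h. As deposited, 1 was lower at 30 min (67), 0 higher at 1 h (160), and 0 higher (348) and 0 lower (8) at 18 h. At 18 h 26 were higher than at 1 h (with 1014 of all 5539 genes higher, against 58 when centred), and TRP4 at 18 h was 0.061. With arrays scaled to equal spread 1 was lower at 30 min (94), and 0 higher (151) and 1 lower (69) at 18 h. With the brightness trend removed 1 was higher at 15 min (57), 1 higher (400) and 8 lower (335) at 30 min, and 5 higher at 1 h (1210). In that setting 4 were higher at 18 h (534) and 9 higher (151) at 18 h than at 1 h. Adding the replicate block to this gave the same member counts, 1, 1, 8, 5, 4 and 9. With the trend removed and no dye term the counts were 1 higher at 15 min (131), 2 higher (503) and 13 lower (621) at 30 min, and 5 higher at 1 h (1201). Then 2 were higher (60) and 1 lower (115) at 1 h than at 30 min. At 18 h 9 were higher (762) and 6 lower (642), and 15 were higher (319) and 1 lower (264) than at 1 h. A further fit left out the 5 arrays whose brightness trend exceeded 1.5 (chosen after seeing the data, as were the 2 combined settings before it). At 30 min 1 array was left, where ILV5 stood at 0.055. At 18 h 0 were then higher (235) and 1 lower (148), and 6 were higher (45) than at 1 h. Leaving out the dimmest quartile gave 9 lower at 30 min (344), 5 higher at 1 h (990) and 8 higher (101) at 18 h than at 1 h. With eBayes trend and robust 0 were lower at 30 min (77), and 0 higher (244) and 0 lower (68) at 18 h. Fits of each time alone gave 0 lower at 30 min (0), 4 higher at 1 h (1267) and 0 higher at 18 h (302). The first spot alone gave 0 higher at 18 h (270). With each array left out in turn the counts ran from 0 to 19 lower at 30 min (5 to 566), and 0 to 1 higher (147 to 338) and 0 to 3 lower (37 to 265) at 18 h. They ran from 0 to 8 higher (8 to 139) at 18 h than at 1 h, and 0 to 8 lower (0 to 203) at 30 min than at 15 min. Isozyme differences ran from -2.25 to -1.90 for BAT1 minus BAT2, 1.04 to 1.23 for LYS20 minus LYS21 and 1.70 to 2.09 for ARO3 minus ARO4; 5 arrays cannot give an exact p under 0.0625, so no call was possible. The causes of these changes were not tested. Whether replicate numbers pair the arrays was not settled. Same-numbered residuals correlated from -0.55 to 0.64, and differently numbered ones were not compared. The correlation limma estimated within replicate numbers was -0.053, and with this replicate block the count at 18 h against 1 h was 4 higher (62) in place of 3. Small counts at 15 min, 30 min and 18 h rest on 3 arrays each, with standard errors of 0.26 to 0.76.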

Other observations

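Outside the 42 genes, 4 of the listed genes were never on the other side of 0 over the time course. Among the 42, only ARG8 did the same, below 0 on all 15 arrays, from -2.16 to -0.11. The share of all genes that did so was not counted, so these counts cannot be set against it. ARG82, an inositol polyphosphate kinase gene, read above 0 on all 15 arrays, from 0.04 to 1.36. ARO9, a catabolic aromatic aminotransferase gene, read above 0 on 14 of 15 arrays and 0 on 18 h replicate 3, with a highest value of 1.68. BAS1, whose product activates histidine and purine genes, read below 0 on all 15 arrays, from -1.71 to -0.28. ASN1, the asparagine synthetase gene, did as well, from -2.54 to -0.08. They were singled out after their values were seen and carry no test over the times, and none was called by limma in the main setting at 15 min, 30 min or 18 h. ARO9 was called higher at 30 min with the brightness trend removed and without the dye term, and ARG82 higher at 18 h with the trend removed. Without the dye term BAS1 was called lower at 30 min and 18 h, and ASN1 at 30 min.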
